A study of Homo sapiens with 12 samples.

Results

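The genes described here carry out homologous recombination and the Fanconi anaemia pathway. They are 36 genes picked by symbol from the known members of both pathways. No measured value entered the rule, but earlier results of these data were known when the genes were chosen. In the annotation of the array, 32 of the 36 had at least 1 probe named, 53 probes in all, and 27 had a probe detected on at least 2 of the 12 arrays, among 11926 genes tested. RBBP8, BRCA2, FANCA and FANCD2 have no probe under their names in the table used, and were not analysed here. RAD50, RAD52, FANCF, FANCM and BRIP1 had probes that lay below the detection level on every array, so their levels are known only to be under that limit. The samples were HBEC cells, human bronchial epithelial cells of the airway lining grown as a line in medium that contained EGF. They stably expressed 1 of 3 forms of EGFR, the receptor tyrosine kinase for EGF: L858R or E746-E750, both forms mutated in the kinase domain and known as drivers of lung adenocarcinoma, or WT. Each line was kept for 24 h at 0.1% oxygen (hypoxic) or held at 21% oxygen (aerobic), which gives 6 groups with 2 bead arrays each: L858R hypoxic and aerobic, E746-E750 hypoxic and aerobic, and WT hypoxic and aerobic. The promoter that drove each EGFR form, and whether a line was 1 clone, are not given in the sources used here. The labels number the 2 samples of a group without saying that they came from separate cultures, so the p-values reflect the spread of these samples alone, and that spread may be technical.

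Homologous recombination repairs a DNA double-strand break by copying an intact sister duplex. The MRE11-RAD50-NBN complex binds the break and begins to trim one strand, EXO1 extends the single-stranded tail, and BRCA1-BARD1, PALB2 and BRCA2, helped by the paralogues RAD51C, RAD51D, XRCC2 and XRCC3, prepare the tail to pair with the intact duplex. RAD54L and RAD54B drive strand exchange, and the joined molecules are then dissolved by BLM-TOP3A-RMI1 or cut by MUS81-EME1, GEN1 or SLX4-bound nucleases. The Fanconi anaemia core complex, with FANCL as the E3 ligase and UBE2T as its E2, ubiquitinates FANCI-FANCD2 at DNA crosslinks, and FAN1 and SLX4 act on the marked lesion. Lower expression of recombination genes in hypoxic cells is known from other cell lines, and many of these genes are transcribed in S phase under E2F control.

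MUS81, PALB2, RAD51C and RAD54L were called in at least 2 of the 9 comparisons below and had a promoter window in the RefSeq table. Each window of 300 bases (GRCh38.p14) runs from 250 bases before the annotated start into the first 50 bases after it, and is printed 5′ to 3′ on the strand of the gene. MUS81 lies at chr11:65860183-65860482 on the plus strand, PALB2 at chr16:23641261-23641560 on the minus strand, RAD51C at chr17:58692323-58692622 on the plus strand, and RAD54L at chr1:46247438-46247737 on the plus strand. Capitals mark matches to the words TTGGCGC and TTCCCGC (E2F), TTTGAA (the cell cycle element CHR), CCAAT (bound by NF-Y) and ACGTG (the core of the hypoxia response element), searched on both strands. A match on the opposite strand shows as the reverse complement, and no printed matches overlap.
MUS81: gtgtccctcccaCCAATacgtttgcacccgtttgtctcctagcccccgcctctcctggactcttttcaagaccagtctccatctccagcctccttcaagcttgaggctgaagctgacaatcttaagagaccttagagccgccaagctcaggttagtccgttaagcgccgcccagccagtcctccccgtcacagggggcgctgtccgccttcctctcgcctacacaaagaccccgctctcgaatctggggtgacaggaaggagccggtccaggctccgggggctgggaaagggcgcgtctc
PALB2: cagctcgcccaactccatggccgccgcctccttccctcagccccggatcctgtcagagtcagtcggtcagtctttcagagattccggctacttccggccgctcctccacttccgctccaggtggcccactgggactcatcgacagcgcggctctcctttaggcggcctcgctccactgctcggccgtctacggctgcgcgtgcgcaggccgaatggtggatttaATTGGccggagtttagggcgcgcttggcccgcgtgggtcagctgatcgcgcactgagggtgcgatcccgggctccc
RAD51C: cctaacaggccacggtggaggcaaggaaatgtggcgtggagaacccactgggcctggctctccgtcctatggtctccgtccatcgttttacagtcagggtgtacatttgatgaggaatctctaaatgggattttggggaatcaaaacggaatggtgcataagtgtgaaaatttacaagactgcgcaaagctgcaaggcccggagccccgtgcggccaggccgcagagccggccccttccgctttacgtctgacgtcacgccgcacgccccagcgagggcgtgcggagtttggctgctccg
RAD54L: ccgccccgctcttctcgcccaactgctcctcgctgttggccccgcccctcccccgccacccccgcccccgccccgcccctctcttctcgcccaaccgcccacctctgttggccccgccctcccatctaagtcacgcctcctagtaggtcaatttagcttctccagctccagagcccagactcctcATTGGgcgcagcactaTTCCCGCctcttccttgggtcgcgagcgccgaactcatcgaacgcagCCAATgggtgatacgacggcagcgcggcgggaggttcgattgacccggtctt
MUS81 and PALB2 held CCAAT once each, RAD54L held TTCCCGC and CCAAT on both strands, and the RAD51C window held none of the words. Over all members with a window (33 genes, 44 windows because some genes have several starts), 21 windows of 18 genes held an E2F word, 47.7%, against 9.23% of all 35116 windows of the table. CCAAT was in 34.1% of the member windows and 34.6% of all windows, ACGTG in 31.8% and 21.4%, and TTTGAA in 6.82% and 15.2%. A match is a run of letters, not a measured binding site.

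Levels are log2 intensities of 1 probe after background correction and quantile normalization, so that 1 unit is a 2-fold difference, and a gene is called where its adjusted p is under 0.05 in limma over all 11926 genes. Calls are from the fit over all 12 arrays unless another is named. The level of one probe cannot be set against that of another. The hypoxia labels were borne out by HIF targets: of 9 tested, 9 were called higher in hypoxic L858R cells, 8 in hypoxic E746-E750 cells and 8 in hypoxic WT cells. Basal airway markers were detected on every array (7 of the 7 with a probe named; TP63, KRT17 and KRT6A had none). Of the other marker lists, 1 of 9 secretory and ciliated genes (TUBA1A), 2 of 10 mesenchymal genes (VIM and ACTA2), 0 of 6 endothelial genes and 2 of 8 leukocyte genes (CD14 and CD68) were detected on every array. Of the other leukocyte genes, PTPRC and CD3E were detected on no array, MS4A1 on 3, CD2 and CD79A on 6 each and LYZ on 7. CD2 was below detection in all aerobic groups and called higher in hypoxia in all 3 lines. All 12 arrays sat on 1 chip, so that position on the chip and group cannot be told apart. The pair of L858R hypoxic arrays stood apart. They correlated at r = 0.849 over the kept probes, against 0.983 to 0.997 in the other 5 groups, and replicate 2 detected 14159 probes against 16485 to 18229 on the other 11 arrays. Over the 27 members tested, the median gap between the replicates of a group was 0.78 in L858R hypoxic cells and 0.067 to 0.21 in the other groups, and 18 members differed by over 0.5 between the L858R hypoxic replicates. For genes with 2 kept probes, the gap between the probes on each array was taken relative to its mean over the aerobic arrays. Of 3213 such genes, 45.8% had probes more than 1 unit apart on L858R hypoxic replicate 2 and 18.1% on L858R hypoxic replicate 1. The share was 20.2% and 27.3% on the E746-E750 hypoxic arrays, and 3.08% and 2.68% on the WT hypoxic arrays. It was at most 0.0311% on an aerobic array, where the centring itself keeps it low. Of 10 members with a second kept probe, 5 were apart in this way on L858R hypoxic replicate 2 (NBN, EXO1, RAD51C, TOP3A and RMI1). On E746-E750 hypoxic replicate 2 it was 1 (EXO1), and on the other arrays none. MUS81, PALB2 and RAD54L have no second kept probe, so that their values on the mutant hypoxic arrays could not be compared in this way. All 12 arrays share 1 estimate of the spread for each gene, and a wide gap in this pair widens it for every comparison. For comparisons that use the pair, the shared estimate can still be narrower than the pair's own spread. XRCC2 had an SD of 0.89 over the pair, against an SE of 0.40 for its hypoxia difference in L858R cells. The SE and p-values of L858R hypoxic comparisons may therefore be too small for such genes. The part of this pair in each call below was measured by leaving out each array in turn.

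As a group, the members did not move one way in hypoxia. In bulk RNA, fewer cells that express a gene and less RNA of it per cell cannot be told apart. In hypoxic L858R cells, 5 rose (PALB2, RAD51C, XRCC2, MUS81 and EME1) and 1 fell (MRE11), 6 of 27 or 22.2%, where 28.7% of all genes tested were called (16.1% higher and 12.6% lower). With arrays centred on their median in place of quantile normalization, the split was 1 higher and 4 lower. The share of all genes called under that scaling is not given here, so this split cannot be set against a background. In hypoxic E746-E750 cells, 4 rose (PALB2, RAD51C, RAD54L and MUS81) and none fell, 14.8% of members against a background of 27.1% (16% higher and 11.1% lower). In hypoxic WT cells, RAD51C rose and NBN fell, 7.41% of members against a background of 13.1% (5.37% higher and 7.71% lower). With either L858R hypoxic array left out, 10 members were called in hypoxic E746-E750 cells, 8 higher and 2 lower (BARD1 and SLX4), 37% against a background of 58.6% (34.7% higher and 23.8% lower). In hypoxic WT cells the same fits called 9, 3 higher and 6 lower, 33.3% against a background of 40.3% (16.8% higher and 23.4% lower). The members' shares were below the background in these 5 counts, of which the last 2 are refits of comparisons already given. In some later comparisons the share of members was above the background. Whether the members' share differs from the background was not tested. The median log2 difference of the 27 members was -0.00 in L858R, 0.04 in E746-E750 and -0.12 in WT cells, and the median of all genes was 0.09, 0.10 and -0.03 in the same order. At an unadjusted p under 0.05 stood 11 members in L858R (41.4% of all genes), 5 in E746-E750 (38.5%) and 6 in WT cells (25.7%). Median centring moved the all-gene medians to -0.06 in L858R, 0.26 in E746-E750 and -0.13 in WT cells, and the member medians to -0.17, 0.26 and -0.19.

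**Figure D1:**
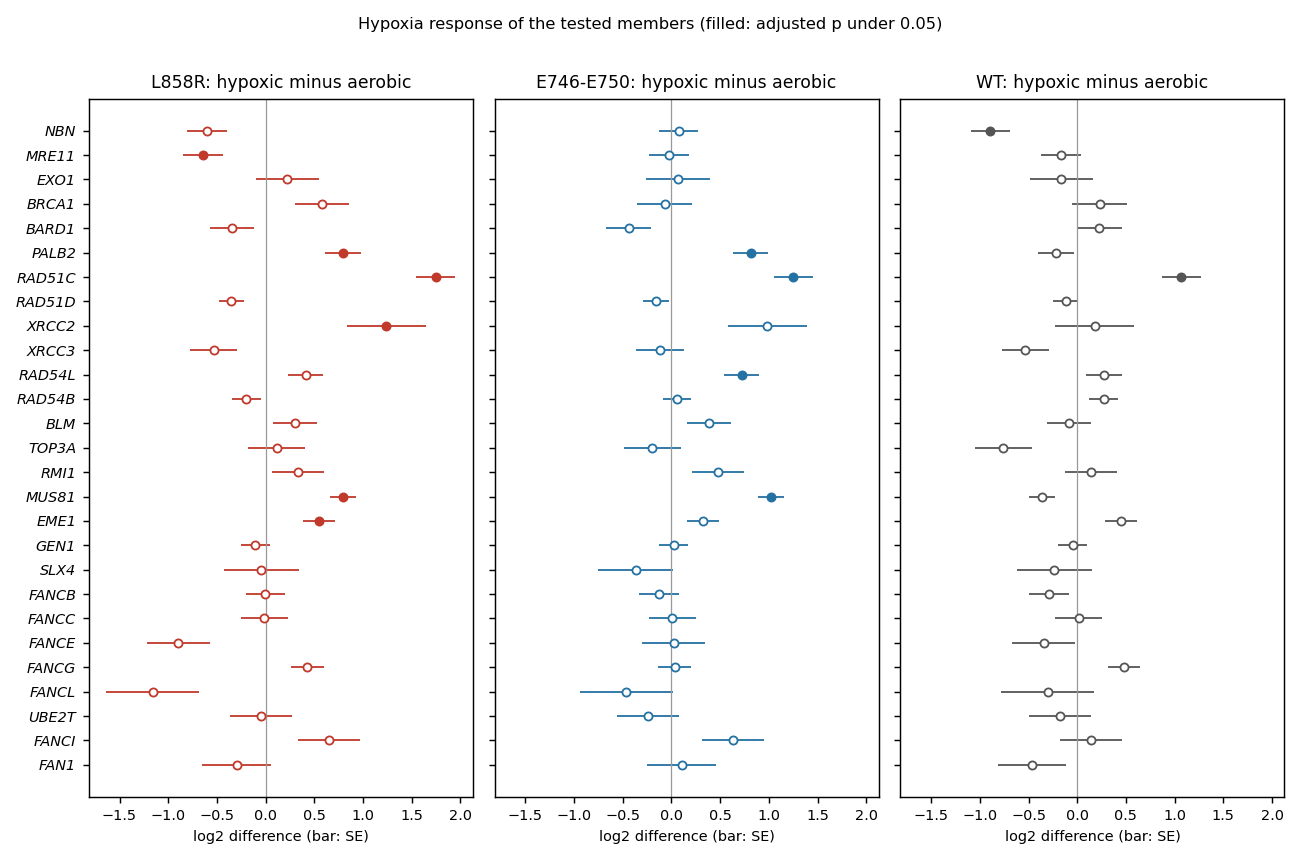
Hypoxic minus aerobic log2 difference of each of the 27 members tested in L858R, E746-E750 and WT cells, with the SE as a bar and a filled point where the adjusted p is under 0.05. RAD51C lies to the right of 1 in all 3 panels, and MUS81 and PALB2 lie right of 0 in both mutant lines and left of 0 in WT cells.

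Among the genes that bind and trim break ends, NBN, the scaffold of the MRE11 complex that recruits ATM, was lower in hypoxic WT cells. Its level was 7.36 and 7.49 on the WT hypoxic arrays, against 8.21 and 8.42 on the WT aerobic arrays. The groups did not overlap, and NBN fell by 0.89 ± 0.20 (SE; 1.86-fold, adjusted p = 0.0222, limma, n = 2 arrays a group). In hypoxic E746-E750 cells NBN was at 8.73 and 8.68, against 8.56 and 8.71 in aerobic E746-E750 cells, a difference of 0.07 ± 0.20 that did not pass. In L858R cells it was at 8.26 and 7.67 hypoxic and at 8.70 and 8.44 aerobic, a difference of -0.60 ± 0.20 (adjusted p = 0.0549, limma). The WT call was lost when either WT hypoxic or either WT aerobic array was left out, and under median centring, with log2 differences of -0.998 to -0.787 over the left-out arrays. A second NBN probe was below detection on both WT hypoxic arrays. Its level was 6.24 and 6.17 there, against 6.51 and 6.68 in aerobic WT cells, at least 1.13-fold lower, and it was not called.

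MRE11, the nuclease of the same complex, was at 7.19 and 6.89 in hypoxic L858R cells, against 7.85 and 7.53 in aerobic L858R cells. It fell by 0.65 ± 0.21 (adjusted p = 0.0457, limma). That call was kept in 3 of the 12 fits that left out 1 array, those without L858R hypoxic replicate 1 or either E746-E750 aerobic array. In E746-E750 and WT cells the difference was -0.02 and -0.16 and did not pass. A second MRE11 probe was below detection on all 4 mutant hypoxic arrays. It read 6.15 and 6.18 in hypoxic and 7.14 and 6.82 in aerobic L858R cells, and 6.22 and 6.07 in hypoxic and 6.87 and 6.86 in aerobic E746-E750 cells. In WT cells it read 6.78 and 6.61 hypoxic and 6.79 and 6.66 aerobic. In a fit over all 21261 kept probes (27.3% called in hypoxic L858R, 26.1% in hypoxic E746-E750 and 10.1% in hypoxic WT cells) this probe was lower in hypoxia by at least 1.36-fold in L858R and at least 1.35-fold in E746-E750 cells, and another MRE11 probe near the detection level was not called. The 3 probes therefore differed in their calls for E746-E750 cells. EXO1, the exonuclease that lengthens the resected tail, was at 7.83 and 9.01 in hypoxic L858R cells, on both sides of its aerobic 8.31 and 8.08. Its main probe was not called in hypoxia in any line. A second EXO1 probe went the other way on L858R hypoxic replicate 2. It read 6.92 and 5.95 in hypoxic L858R cells, the latter below detection, against 7.15 and 6.93 in aerobic L858R cells.

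Among the genes of the BRCA complex, PALB2, the bridge between BRCA1 and BRCA2, rose in both mutant lines. It was at 7.73 and 8.20 in hypoxic L858R cells, against 7.26 and 7.07 in aerobic L858R cells. In E746-E750 cells it was at 7.91 and 8.12 hypoxic and at 7.17 and 7.25 aerobic. The increase was 0.80 ± 0.18 in L858R (1.74-fold, adjusted p = 0.0125, limma) and 0.81 ± 0.18 in E746-E750 cells (1.76-fold, adjusted p = 0.0115, limma). In WT cells PALB2 was at 6.96 and 6.89 hypoxic and at 7.27 and 7.03 aerobic, a difference of -0.22 ± 0.18 that did not pass. The L858R call was lost without L858R aerobic replicate 2, and the E746-E750 call without either E746-E750 aerobic array or without E746-E750 hypoxic replicate 2. The L858R call was also lost under median centring and with array weights.

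BRCA1, the ubiquitin ligase that favours recombination over end joining, was not called in hypoxia in any line by either of its 2 probes. Its main probe read 7.32 and 8.35 in hypoxic L858R cells, against 7.27 and 7.24 in aerobic L858R cells, so that replicate 2 alone stood high. In E746-E750 cells it read 7.42 and 7.54 hypoxic and 7.59 and 7.51 aerobic. In WT cells it read 7.28 and 7.52 hypoxic and 7.13 and 7.22 aerobic, a difference of 0.23 ± 0.28. The second probe was also highest there, with 8.09 on L858R hypoxic replicate 2 and 6.90 to 7.42 on the other 11 arrays. BARD1, the partner of BRCA1, was at 8.52 and 8.56 in hypoxic against 8.92 and 9.03 in aerobic E746-E750 cells, and its difference of -0.44 ± 0.23 did not pass.

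RAD51C, a paralogue found in both paralogue complexes, rose in all 3 lines. Its brightest probe read 11.38 and 11.999 in hypoxic and 9.92 and 9.97 in aerobic L858R cells, 11.20 and 11.29 in hypoxic and 10.07 and 9.92 in aerobic E746-E750 cells, and 10.88 and 10.84 in hypoxic and 9.66 and 9.92 in aerobic WT cells. Every hypoxic array lay above every aerobic array. The increase was 1.75 ± 0.20 in L858R (3.36-fold, adjusted p = 0.000486), 1.25 ± 0.20 in E746-E750 (2.38-fold, adjusted p = 0.00228) and 1.07 ± 0.20 in WT cells (2.10-fold, adjusted p = 0.00957, all limma). The calls in both mutant lines were kept whichever array was left out, and the WT call was lost without WT aerobic replicate 1 or either WT hypoxic array.

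The other 2 kept probes of RAD51C did not all give this result. Probe ILMN_2238928 read 9.89 and 10.72 in hypoxic and 9.08 and 9.21 in aerobic L858R cells and was called there (1.16 ± 0.27). It differed by 0.80 in E746-E750 and 0.96 in WT cells, which did not pass. Probe ILMN_1760635 read 10.26 and 10.41 in hypoxic against 9.26 and 9.29 in aerobic WT cells, a difference of 1.06 ± 0.46 that did not pass. In hypoxic L858R cells the same probe read 10.20 and 8.36, against 9.45 and 9.53 in aerobic L858R cells, a difference of -0.21 in the opposite direction. In E746-E750 cells it read 9.85 and 9.99 hypoxic against 9.57 and 9.64 aerobic, a difference of 0.32 ± 0.46 that did not pass. The gap between its 2 L858R hypoxic arrays was larger than any difference between groups. In WT cells, where the arrays agreed closely, all 3 probes were about 1 unit higher in hypoxia on both arrays.

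**Figure D2:**
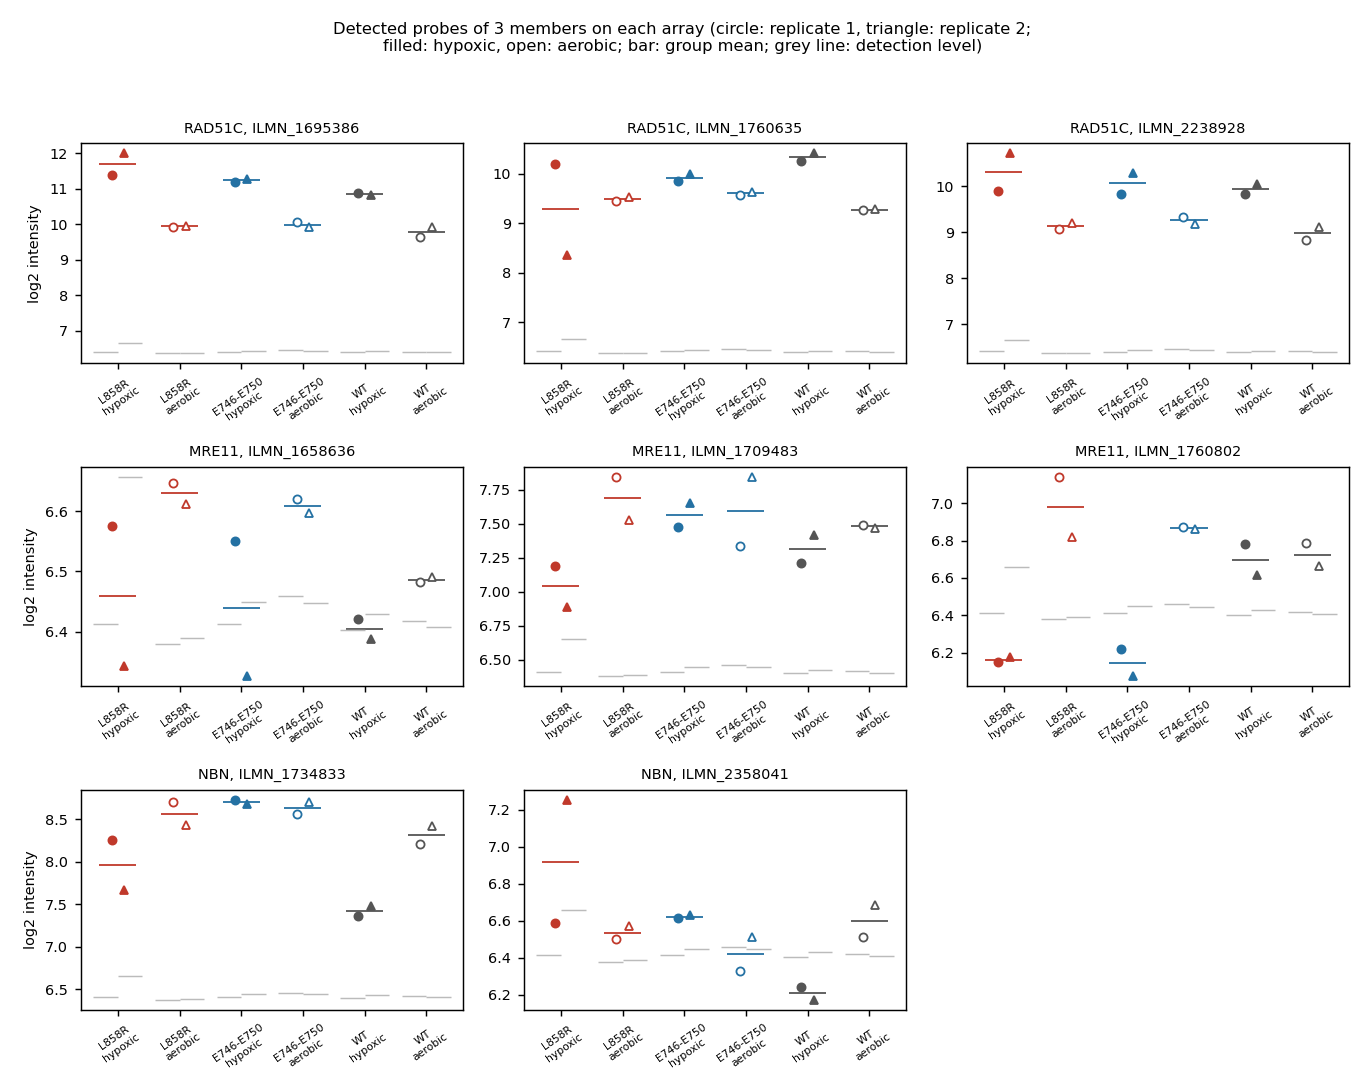
Log2 intensity of every kept probe of RAD51C, MRE11 and NBN on each array (circle replicate 1, triangle replicate 2, filled hypoxic, open aerobic), with the group mean as a bar and each array's detection level as a grey line. The RAD51C probes part on L858R hypoxic replicate 2, at 11.999, 8.36 and 10.72.

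XRCC2, another paralogue, was at 9.45 and 8.19 in hypoxic L858R cells, against 7.72 and 7.43 in aerobic L858R cells. It rose by 1.24 ± 0.40 (adjusted p = 0.0489, limma). Of the fits that left out 1 array, 3 kept that call, those without L858R hypoxic replicate 2 or either WT hypoxic array. In E746-E750 cells it was at 9.01 and 8.90 hypoxic and at 7.88 and 8.06 aerobic, a difference of 0.98 ± 0.40 that did not pass (adjusted p = 0.107, limma). In WT cells the hypoxic arrays, 8.22 and 7.33, lay on both sides of the aerobic 7.46 and 7.74. The paralogues RAD51D and XRCC3 were not called in hypoxia over 12 arrays: RAD51D stayed within 6.30 to 6.84, close to the detection level, and XRCC3 differed by -0.53, -0.12 and -0.53 in L858R, E746-E750 and WT cells.

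RAD54L, a motor that drives strand exchange, was at 8.17 and 8.44 in hypoxic E746-E750 cells, against 7.49 and 7.68 in aerobic E746-E750 cells. It rose by 0.72 ± 0.18 (1.65-fold, adjusted p = 0.0182, limma), a call lost without either E746-E750 aerobic array or without E746-E750 hypoxic replicate 2. In hypoxic L858R cells it was at 7.69 and 8.13, against 7.46 and 7.54 aerobic, and in hypoxic WT cells at 7.49 and 7.31, against 7.17 and 7.08 aerobic. Both hypoxic arrays lay above both aerobic arrays in each line, but the differences of 0.41 in L858R and 0.27 in WT cells did not pass. RAD54B, its relative, lay between 6.67 and 7.42 over the 12 arrays and was not called in hypoxia in any line.

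Of the 7 genes that resolve joint molecules, MUS81, a nuclease that cuts branched DNA, rose in both mutant lines. It was at 8.58 and 8.68 in hypoxic against 7.85 and 7.82 in aerobic L858R cells, and at 8.87 and 8.90 in hypoxic against 7.85 and 7.87 in aerobic E746-E750 cells. The hypoxic and aerobic arrays did not overlap in either line. The increase was 0.79 ± 0.13 in L858R (1.73-fold, adjusted p = 0.0029, limma) and 1.03 ± 0.13 in E746-E750 cells (2.04-fold, adjusted p = 0.000775, limma). In WT cells MUS81 was at 7.84 and 7.58 hypoxic and at 8.13 and 8.01 aerobic, a difference of -0.36 ± 0.13 that did not pass over 12 arrays. Both calls were kept whichever array was left out. The L858R call was lost under median centring, with array weights and with only the arrays compared, and no alternative ended the E746-E750 call.

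EME1, which pairs with MUS81 to make the active nuclease, was at 7.48 and 7.29 in hypoxic L858R cells, against 6.92 and 6.76 in aerobic L858R cells. It rose by 0.54 ± 0.16 (adjusted p = 0.0376, limma), a call kept in 4 of the 12 fits that left out 1 array, those without an L858R hypoxic or an E746-E750 aerobic array. In E746-E750 cells it was at 7.56 and 7.34 hypoxic and at 7.32 and 6.94 aerobic, and in WT cells at 7.22 and 7.23 hypoxic and at 6.73 and 6.83 aerobic. The differences of 0.32 and 0.45 did not pass over 12 arrays. TOP3A, the topoisomerase of the BLM complex, was at 7.67 and 7.55 in hypoxic WT cells, against 8.36 and 8.37 in aerobic WT cells, a difference of -0.76 ± 0.30 that did not pass over 12 arrays. Its second probe was below detection on both WT hypoxic arrays, at 6.38 and 6.40, against 6.72 and 6.43 aerobic. On L858R hypoxic replicate 2 the second probes of TOP3A and RMI1 were below detection, at 6.04 and 6.49, where both main probes read 8.78. SLX4, the nuclease scaffold, read 7.64 and 9.07 on the L858R hypoxic arrays and 7.69 to 8.51 on the other 10. BLM, the helicase that dissolves double junctions, RMI1, its stabilising partner, and GEN1, a junction nuclease, were not called, with levels of 6.40 to 7.42, 7.75 to 8.78 and 6.25 to 6.57 over the 12 arrays. GEN1 was above detection on 5 arrays with its main probe and BLM on 10, so part of their values lie below that level.

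Over 12 arrays, no Fanconi core or ID2 gene was called in hypoxia in any line. FANCE, which links the core complex to its substrate, was at 7.92 and 9.13 in hypoxic L858R cells, against 9.43 and 9.41 in aerobic L858R cells, a difference of -0.90 ± 0.32 (adjusted p = 0.0695, limma). FANCL, the ligase, differed by -1.16, -0.46 and -0.30 in L858R, E746-E750 and WT cells, and read 8.35 and 6.64 on the L858R hypoxic arrays, the largest replicate gap among the main probes of the members. FANCG was at 9.46 and 9.68 in hypoxic WT cells, against 9.10 and 9.08 in aerobic WT cells. UBE2T was at 9.38 and 10.56 in hypoxic L858R cells, on both sides of the aerobic 10.13 and 9.90. FANCI, the partner of FANCD2, was at 8.56 and 8.91 in hypoxic against 8.04 and 8.16 in aerobic E746-E750 cells, which did not pass (0.64 ± 0.32). FAN1 lay between 6.50 and 7.81. FANCB, at 6.24 to 7.03, was detected on 9 arrays and FANCC, at 6.19 to 7.07, on 8, both near the detection level throughout. RAD51D, XRCC3, FANCL and FAN1 were detected on 11 arrays, and the tested members without a number of arrays here on all 12.

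Because the WT hypoxic and the aerobic groups lack the wide replicate gap of the L858R hypoxic pair, WT hypoxia was also fitted over the 8 aerobic and WT hypoxic arrays alone. Over those arrays 10 members were called in hypoxic WT cells, 3 higher and 7 lower, 37% against a background of 47.3% of all genes (20.2% higher and 27.1% lower). RAD51C (1.07 ± 0.11), FANCG (0.48 ± 0.10) and EME1 (0.45 ± 0.12) rose. NBN (-0.89 ± 0.12), TOP3A (-0.76 ± 0.12), XRCC3 (-0.53 ± 0.13), FAN1 (-0.46 ± 0.11), MUS81 (-0.36 ± 0.11), FANCE (-0.35 ± 0.10) and FANCL (-0.30 ± 0.11) fell. FAN1, a nuclease that acts at crosslinks, was at 7.03 and 6.90 in hypoxic WT cells, against 7.40 and 7.46 in aerobic WT cells. None of these 10 turned its sign with another scaling (no background correction, median centring or the authors' processed values). That check covered direction only, not whether a gene stayed called.

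Comparing mutant with WT cells at 0.1% oxygen, 4 members were called in L858R cells, 3 higher (PALB2, RAD51C and MUS81) and 1 lower (FANCE), 14.8% against a background of 21.8% (13.6% higher and 8.14% lower). In E746-E750 cells 4 were called, all higher (NBN, PALB2, RAD54L and MUS81), 14.8% against a background of 17.8% (11.5% higher and 6.33% lower). With either L858R hypoxic array left out, the E746-E750 count was 16, 14 higher and 2 lower (BARD1 and FANCE), 59.3% against a background of 51.8% (34.3% higher and 17.6% lower). Both comparisons share the WT arrays, so that their agreement is not independent. The median difference of the members was 0.31 in L858R and 0.34 in E746-E750 cells, and that of all genes was 0.13 in both. At an unadjusted p under 0.05 stood 9 members in L858R (37.2% of all genes) and 8 in E746-E750 cells (31.7%).

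MUS81 was at 8.58 and 8.68 in hypoxic L858R cells, 8.87 and 8.90 in hypoxic E746-E750 cells and 7.84 and 7.58 in hypoxic WT cells. It was higher by 0.92 ± 0.13 (adjusted p = 0.00227) and 1.18 ± 0.13 (adjusted p = 0.00078, both limma), calls kept whichever array was left out. PALB2, at 6.96 and 6.89 in hypoxic WT cells, was higher by 1.03 ± 0.18 in L858R (adjusted p = 0.00586) and 1.09 ± 0.18 in E746-E750 cells (adjusted p = 0.00469, both limma). The second of these was lost without E746-E750 hypoxic replicate 2. NBN was at 8.73 and 8.68 in hypoxic E746-E750 cells, against 7.36 and 7.49 in hypoxic WT cells, higher by 1.28 ± 0.20 (2.43-fold, adjusted p = 0.00357, limma). That call was kept whichever array was left out. The second NBN probe differed by 0.41 between these groups and did not pass (background 18.8% of probes). With that probe, hypoxic L858R cells, at 6.59 and 7.25, were at least 1.42-fold higher than hypoxic WT cells and called over all probes (background 21.8%), while the main probe, at 8.26 and 7.67, was not.

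RAD54L was higher in hypoxic E746-E750 than in hypoxic WT cells by 0.91 ± 0.18 (adjusted p = 0.00996, limma), a call lost without WT hypoxic replicate 2 or E746-E750 hypoxic replicate 2. RAD51C was higher in hypoxic L858R than in hypoxic WT cells by 0.83 ± 0.20 (adjusted p = 0.0203, limma) with its brightest probe, a call lost without either WT hypoxic array. Its probe ILMN_1760635 gave -1.05, the opposite sign, and ILMN_2238928 gave 0.36, and neither was called. FANCE was at 7.92 and 9.13 in hypoxic L858R cells, against 9.47 and 9.73 in hypoxic WT cells, a difference of -1.08 ± 0.32 (adjusted p = 0.0458, limma). The fits without L858R hypoxic replicate 1 and without L858R hypoxic replicate 2 kept this call, and the other 10 fits that left out 1 array lost it. The value without replicate 1 was -0.47 and without replicate 2 was -1.68.

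**Figure D3:**
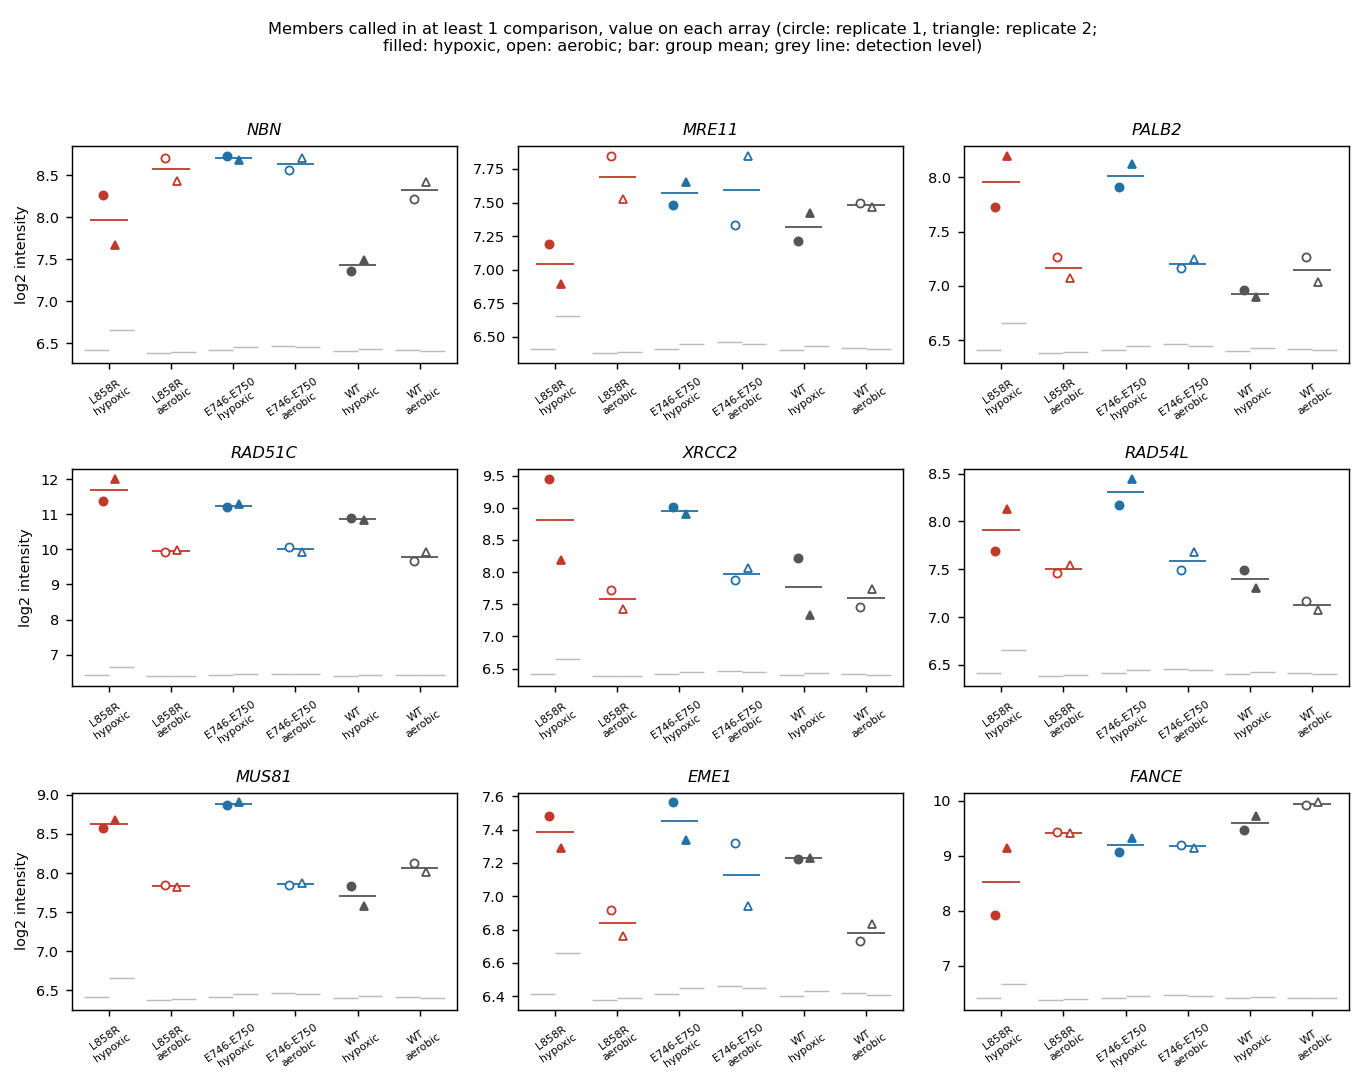
Log2 intensity on each array of the 9 members called in at least 1 comparison (circle replicate 1, triangle replicate 2, filled hypoxic, open aerobic), with the group mean as a bar and the detection level as a grey line. MUS81 and PALB2 lie above their own aerobic arrays on all 4 mutant hypoxic arrays, and NBN is lowest on the WT hypoxic arrays.

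Subtracting the WT response to hypoxia from the mutant response tests whether the lines differ. Of the 27 members, MUS81 and PALB2 passed in L858R cells (7.41% against a background of 7.76%, 4.34% higher and 3.41% lower), and both also passed in E746-E750 cells (7.41% against 7.29%, 4.34% higher and 2.96% lower). Both tests share the 4 WT arrays. The MUS81 response was larger than in WT cells by 1.16 ± 0.19 in L858R (adjusted p = 0.00969) and by 1.39 ± 0.19 in E746-E750 cells (adjusted p = 0.00467, both limma). The E746-E750 value was called in all 12 fits that left out 1 array and all 8 other settings run, and the L858R value was lost without WT aerobic replicate 1 or either L858R aerobic array, with array weights and with only the arrays compared. The PALB2 response was larger by 1.02 ± 0.26 in L858R (adjusted p = 0.0491) and 1.03 ± 0.26 in E746-E750 cells (adjusted p = 0.0477, both limma). These calls were kept in 2 of the 12 fits that left out 1 array, those without an L858R hypoxic array. No background correction and the replicate block ended both, and the authors' processed values and median centring the L858R one. NBN differed in the E746-E750 response by 0.97 ± 0.29, which did not pass (adjusted p = 0.0833, limma). MRE11 probe ILMN_1760802 was called in the L858R response (-0.79 ± 0.20, background 9.17% of probes), and the main MRE11 probe was not. At an unadjusted p under 0.05 stood 3 members in L858R (24.8% of all genes) and 3 in E746-E750 cells (21.8%). Median centring raised the E746-E750 count of called members to 10. The median of all genes rose too, from 0.15 with quantile normalization to 0.48, and the share of all genes called is not given here.

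Each L858R result was refitted without 1 of its 2 hypoxic arrays, which takes the spread of the lone array from the other groups. Among the members called in both refits of hypoxia in L858R cells, MUS81, PALB2, RAD51C and EME1 kept 1 direction and FANCC, SLX4, TOP3A and UBE2T turned. Among those called in both refits against hypoxic WT cells, MUS81, PALB2, RAD51C and FANCE kept 1 direction, and FAN1 and FANCC turned. For the difference in response, MUS81 and PALB2 kept 1 direction and FANCC turned. With only the arrays compared, none of the L858R calls in these 3 comparisons was kept, and with array weights RAD51C alone kept its call in hypoxia. Median centring also ended the hypoxia calls of XRCC2 and EME1, no background correction and no filter on dim probes those of MRE11 and XRCC2, the replicate block that of MRE11, and the authors' processed values that of XRCC2. Against hypoxic WT cells, FANCE was lost with the authors' processed values and with no filter on dim probes, and RAD51C with the mean of its probes.

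At 21% oxygen, no member was called in L858R minus WT cells (0 of 27, with none at an unadjusted p under 0.05, where 0.0252% of all genes were called, 0.00839% higher and 0.0168% lower, and 5.51% had such a p) or in E746-E750 minus WT cells (0 of 27, with 4 at an unadjusted p under 0.05, where 0.277% were called, 0.117% higher and 0.159% lower, and 7.73% had such a p) over 12 arrays. The median difference of the members was 0.14 in L858R and 0.21 in E746-E750 cells, and that of all genes was -0.00 and -0.02. Of the 27, 21 were higher in L858R and 20 in E746-E750 than in WT cells. Under median centring the E746-E750 median was -0.08 with an all-gene median of -0.22, so that the sign of the members' median turned with the scaling, and 11 of 27 were positive.

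The same comparisons fitted over the 8 aerobic and WT hypoxic arrays called 3 members in L858R (2 higher and 1 lower, 11.1% against a background of 11.5%, 5.62% higher and 5.91% lower) and 8 in E746-E750 cells (7 higher and 1 lower, 29.6% against a background of 17.8%, 7.43% higher and 10.3% lower). UBE2T, the E2 of the Fanconi pathway, was at 10.13 and 9.90 in L858R and 10.11 and 10.26 in E746-E750 cells, against 9.46 and 9.42 in WT cells. It was higher by 0.58 ± 0.11 and 0.75 ± 0.11, and the groups did not overlap. FANCE went the other way. It was at 9.43 and 9.41 in L858R and 9.20 and 9.14 in E746-E750 cells, against 9.92 and 9.97 in WT cells, with differences of -0.52 ± 0.10 and -0.78 ± 0.10. RAD54L was at 7.46 and 7.54 in L858R and 7.49 and 7.68 in E746-E750 cells, against 7.17 and 7.08 in WT cells, higher by 0.37 ± 0.11 and 0.46 ± 0.11.

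In E746-E750 cells alone this fit also called RAD54B, at 7.16 and 7.42 against 6.67 and 6.69 in WT cells (0.61 ± 0.12), EXO1, at 8.38 and 8.48 against 7.90 and 7.996 (0.48 ± 0.12), FANCI, at 8.04 and 8.16 against 7.65 and 7.68 (0.43 ± 0.10), FANCL, at 8.73 and 8.76 against 8.34 and 8.32 (0.41 ± 0.11), and BRCA1, at 7.59 and 7.51 against 7.13 and 7.22 (0.37 ± 0.10). Whether these differ between the 2 mutant lines was not tested. No sign of a call turned under the other scalings, a check of direction that does not show whether the calls held. Both aerobic comparisons share the WT arrays.

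**Figure D4:**
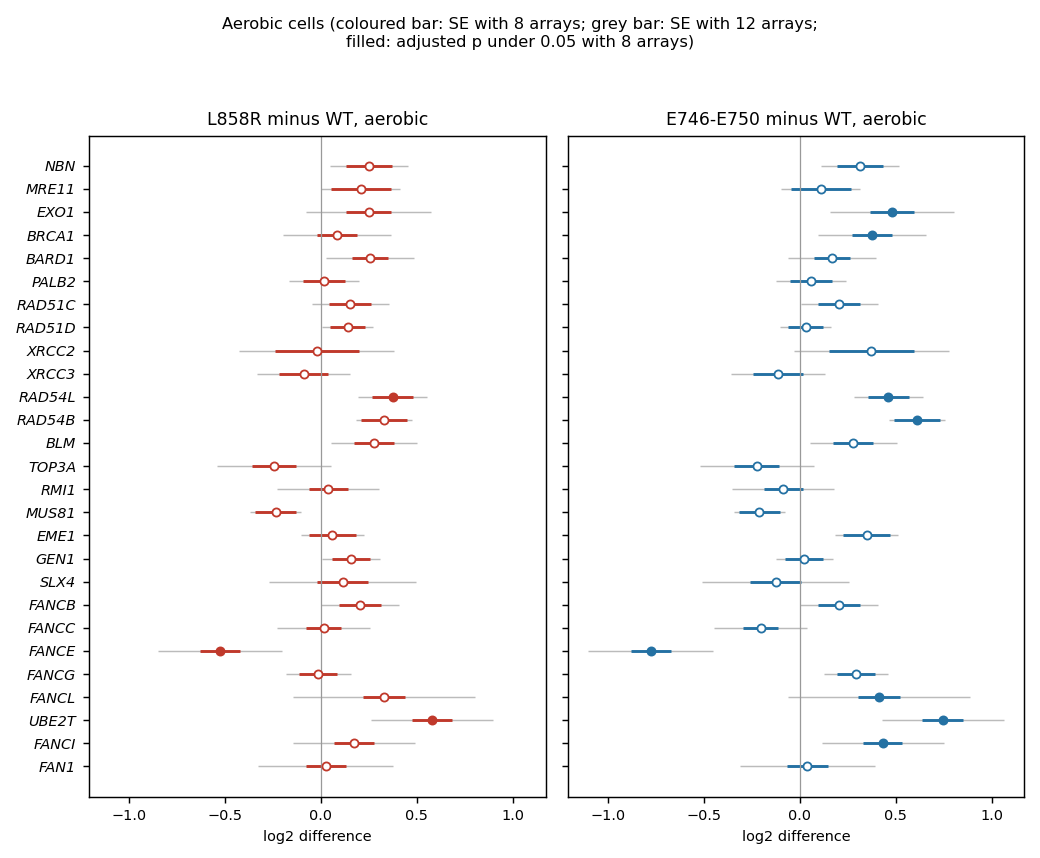
L858R minus WT and E746-E750 minus WT log2 difference of the 27 members in aerobic cells, with the SE over 8 arrays (coloured) and over 12 arrays (grey), filled where the 8-array adjusted p is under 0.05. UBE2T lies farthest right and FANCE farthest left in both panels.

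Genes of S phase, the part of the cycle in which recombination is active, were read beside the members. In aerobic cells all 17 tested had a positive difference between L858R and WT cells, with a median of 0.78 and none called. All 17 were also positive in E746-E750 cells, with a median of 0.82 and 2 called, where 0.277% of all genes were called. These were PCNA (1.74 ± 0.21), the sliding clamp, and MCM4 (1.59 ± 0.18), a subunit of the replicative helicase. CDC6, which loads the helicase, was below detection in these 3 aerobic groups, so that its direction was not measured. Under median centring 14 of 17 were positive in E746-E750 cells. In hypoxia 1 of the 17 rose and 5 fell in each mutant line, where 28.7% of all genes were called in L858R and 27.1% in E746-E750 cells. RRM2, a subunit of ribonucleotide reductase, fell below detection on the mutant hypoxic arrays, at least 3.47-fold in L858R and at least 4.30-fold in E746-E750 cells, and MCM4 fell by 2.23 and 2.43. PCNA rose by 0.77 and 0.73. In WT cells 2 rose, CDT1 (1.54) and PCNA (0.99), and MCM6 fell by 1.29, where 13.1% of all genes were called. Median centring gave 2 higher and 5 lower in WT cells, without a share of all genes given here. Of the S phase genes, MCM4 and RRM2 had a lower response in both mutant lines than in WT cells (MCM4 by -1.61 and -1.81, with no size given for RRM2, which was undetected in the hypoxic mutant groups), where the members MUS81 and PALB2 had a higher one. The part of S phase in the members' values was not tested.

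Of the E2F, pocket protein and DREAM factors, 16 were tested. E2F7, a repressor of the family, rose in hypoxia by 2.04 ± 0.28 in L858R, 2.53 ± 0.28 in E746-E750 and 1.39 ± 0.28 in WT cells. E2F5 fell by 0.70, 0.54 and 1.05, each ± 0.12. Counts of the list were 3 higher and 3 lower in each mutant line and 1 higher and 2 lower in WT cells. Of all genes tested, 28.7% were called in L858R, 27.1% in E746-E750 and 13.1% in WT cells. Median centring gave 2 and 4 in L858R, 2 and 2 in E746-E750 and 0 and 3 in WT cells, without a share of all genes given here. No gene of this list was called in aerobic cells.

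A further 37 recombination and Fanconi genes were tested. In hypoxia 4 rose and 3 fell in L858R, 4 rose and 4 fell in E746-E750, and 2 rose and 2 fell in WT cells. Of all genes tested, 28.7%, 27.1% and 13.1% were called in the same order. Median centring gave 3 and 3, 11 and 2, and 0 and 2, where the share of all genes called is not given here. RMI2, a subunit of the BLM complex, rose in all 3 lines, by 0.49 ± 0.16 in L858R, 0.55 ± 0.16 in E746-E750 and 0.81 ± 0.16 in WT cells. RECQL5, a helicase that restrains recombination, rose by 1.37 ± 0.17 in L858R and at least 1.94-fold in E746-E750 cells. Its response was called larger than in WT cells in both mutant lines, as for MUS81 and PALB2, but it was below detection on all 4 WT arrays, so no size is given. ABRAXAS1, the scaffold of the BRCA1-A complex, rose by 1.62 ± 0.43 in L858R and 1.57 ± 0.43 in E746-E750 cells. WRN, a helicase, fell by 0.98 ± 0.23 in WT cells. SFR1, a cofactor of strand exchange, was lower in hypoxic L858R and E746-E750 than in hypoxic WT cells, with differences of -1.69 ± 0.37 and -2.16 ± 0.37. In aerobic cells none of the 37 was called.

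The 3 genes whose 6 group means followed the median of the detected members most closely were POP5 (r = 0.998), MTURN (r = 0.995) and CDC7 (r = 0.993), over 6 points and picked from all genes, as a description of likeness only. That member median, centred on each gene's mean, was 0.16 in hypoxic and 0.05 in aerobic L858R cells, 0.14 in hypoxic and 0.04 in aerobic E746-E750 cells, and -0.23 in hypoxic and -0.09 in aerobic WT cells. It was highest in the mutant hypoxic groups and lowest in hypoxic WT cells.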

How the data were processed

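RNA of 12 samples was labelled as biotinylated cRNA for Illumina bead arrays, per the labels' protocols. The authors deposited raw probe intensity on a linear scale for 47323 probes, with no background subtracted, and a second table of log2 values that the values show to be quantile normalized between arrays. The sources used here do not say how the authors made the log2 table. All sample columns were used.

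With limma 3.58.1 (R 4.3.3), raw intensities were corrected by normexp (offset 50, which compresses differences of dim probes), quantile normalized and taken to log2. The detection level of an array was percentile 99 of its noise, taken as the lower side of the main peak reflected at the mode (density bandwidth 0.02). A probe was kept if detected on at least 2 arrays: 21261 probes, of which 16023 had a gene. Annotation gave 30113 probes 1 gene, 8 several and 17202 none, and changed no symbol. The brightest kept probe stood for each of 11926 genes. A mean per group was fitted over 12 arrays (6 groups, 6 residual degrees of freedom), with two-sided p-values adjusted by Benjamini-Hochberg over all genes and called under 0.05. Second probes were fitted over all kept probes. A probe undetected in the dimmer group has a fold that is a bound against the detection level. The fit was also run on simulated data, drawn with 1 spread per gene for all arrays and with effects in the WT hypoxic group only. That run cannot show how the fit handles the wide gap between the L858R hypoxic arrays.

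The members and lists were chosen with earlier results of these data known. Each member called in at least 1 comparison is given on every array, others by detection and range. From the other lists up to 4 called genes a comparison are named. Promoter windows are RefSeq's (GRCh38.p14). No genome build came with the probes, so no probe positions are given. Alternatives were the authors' values, no background correction, median centring, no filter, the mean of a gene's probes, other probes, array weights, a block for the replicate number, only the arrays compared, the 8 aerobic and WT hypoxic arrays, and each array left out. The small number of arrays limits the precision.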

Additional observations from a re-analysis of the deposited data

Results flagged for a closer look

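The hypoxia response of MUS81 differed between the lines by a test of the difference itself, in which the WT response is subtracted from the mutant one. The value was 1.16 in L858R and 1.39 in E746-E750 cells, with both hypoxic arrays above both aerobic arrays in each mutant line and below them in WT cells. The response of PALB2 differed in the same test by 1.02 in L858R and 1.03 in E746-E750 cells. Both PALB2 calls were lost in 10 of the 12 fits that left out 1 array.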

How the results depend on the processing

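Of 75 counts of members called under settings that kept all samples of the groups compared, 43 stayed within 1.5 times of the value reported, and of 108 counts with 1 array left out, 54 did. Of 24 gene calls, 9 were kept whichever array was left out, 5 of them also under every other setting of the fit, and 3 of those with other kept probes counted too, all of MUS81 in E746-E750 cells, which has no other probe to compare. The other kept probes of RAD51C in E746-E750 hypoxia and of NBN in hypoxic E746-E750 minus WT were not called. Single genes kept direction and call in 363 of 494 settings and direction alone in 129. The 2 that reversed were both RAD51C with probe ILMN_1760635, at -0.21 in L858R hypoxia and -1.05 in hypoxic L858R minus WT. Those that follow are counts of members only. The share of all genes called also moved between fits, so they do not set the members against other genes. Array weights gave 1 member in L858R, 9 in E746-E750 and 9 in WT hypoxia, 4 and 9 in L858R and E746-E750 minus WT aerobic, 0 and 12 in the hypoxic comparisons, and 0 and 6 in the response differences. Only the arrays compared gave 0, 8 and 9, then 5 and 12, 0 and 11, and 0 and 6 in the same order. Median centring gave 8 in E746-E750 hypoxia, 1 in E746-E750 minus WT aerobic, 9 and 11 in the hypoxic comparisons, and 1 and 10 in the response differences. The authors' processed values gave 1 in the L858R response difference, and no background correction gave 1 in each response difference. The 8 aerobic and WT hypoxic arrays gave 10 in WT hypoxia, 3 in L858R and 8 in E746-E750 minus WT aerobic. With 1 array left out, the count ranged from 2 to 21 in L858R, 2 to 10 in E746-E750 and 0 to 9 in WT hypoxia, from 0 to 2 and 0 to 5 in the aerobic comparisons, from 2 to 18 and 2 to 16 in the hypoxic ones, and from 0 to 14 and 1 to 6 in the response differences of L858R and E746-E750. The highest counts came without an L858R hypoxic array. The cause of the other shifts was not tested.

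The replicate numbers were not taken to pair the samples, since not every correlation of same-numbered deviations was over 0.1: they ran from -0.203 to 0.749 over 15 pairs of groups and were over 0.1 in 4. The value of 0.749 was between the hypoxic L858R and hypoxic E746-E750 groups. With the replicate number as a block the counts were 5, 4 and 2 in L858R, E746-E750 and WT hypoxia, 0 and 0 in the aerobic, 4 and 4 in the hypoxic comparisons, and 1 and 1 in the response differences. The share of all genes called with the block is not given here. Signal near the detection level limits FANCB, FANCC, GEN1 and RAD51D.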
